A study of Saccharomyces cerevisiae with 12 samples.

Results

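Untreated cells deficient in SLT2 were compared with untreated wild-type cells of budding yeast, Saccharomyces cerevisiae, across 5449 genes. Membership was set by the labels of genotype and time alone, which put 6 of the 12 arrays of the series in this comparison, 3 of each genotype. Both genotypes had the BY4741 background, a common haploid strain of the a mating type without LEU2, URA3, MET17 and part of HIS3. The cultures were in exponential phase in YEPD, a rich glucose medium, at 30 °C, and were sampled at 0 h with no arsenate. The other 6 arrays carried RNA of the same genotypes after 2 h with 100 µM sodium arsenate. The labels call the mutant slt2 deficient and do not say how the gene was disrupted or whether more than 1 clone was used. The design text calls the 3 replicates of a group independent and does not state that they were separate cultures, so p-values measure the spread between these arrays, which may be technical.

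SLT2 encodes the mitogen-activated protein kinase at the end of the cell wall integrity pathway. In this pathway sensors in the plasma membrane, among them Wsc1 (gene SLG1) and Mid2, report stress on the wall to the exchange factor Rom2, which loads the GTPase Rho1 with GTP. Rho1 activates the protein kinase Pkc1, and the signal passes through Bck1 and the paired kinases Mkk1 and Mkk2 to Slt2. Active Slt2 phosphorylates the transcription factor Rlm1, which drives many wall protein genes, and acts on SBF, the Swi4 and Swi6 complex that drives genes of late G1. The pathway is also active at a basal level during bud growth, when new wall is laid down.

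SLT2 itself (locus YHR030C) checked the genotype labels. Its log2 signal was 10.74, 10.66 and 10.88 on wild-type arrays 1 to 3 and 5.79, 5.60 and 5.28 on slt2 arrays 1 to 3. No slt2 array came near a wild-type array, and the group means were 10.76 ± 0.11 and 5.56 ± 0.26 (SD, n = 3). The log2 difference, slt2 minus wild type, was -5.20 (SE 0.15), a signal at least 36.8-fold lower since the slt2 arrays read near the probe sets of deleted genes, with an adjusted p of 0.000135 (limma, Benjamini-Hochberg over all genes). Probe sets of genes missing from the strain served as a second check. LEU2, URA3 and MET17 read between 3.74 and 5.47 on these 6 arrays. HIS3 read 11.93, 12.21 and 12.003 on the wild-type arrays and 12.07, 11.95 and 12.06 on the slt2 arrays, and checks nothing because its deletion is partial. Among mating type genes, STE2, the alpha-factor receptor of a cells, read 13.01 ± 0.20 in wild type and 13.05 ± 0.02 in slt2, with overlapping groups. Of 7 a-cell genes and 4 alpha-cell genes, 0 had groups that did not overlap. Of all genes, 17.9% were lower and 8.94% higher in slt2 without overlap, so 0 among so few genes says little. With each array centred on its median, 1 a-cell gene was higher without overlap.

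Spread was wider within wild type than within slt2, with median SDs per gene of 0.21 and 0.085 log2 units. Wild-type array 3 had 13 genes at least 1 log2 unit from the slt2 mean, whereas wild-type array 1 had 172 and wild-type array 2 had 396. Across genes, array 3 correlated with the slt2 arrays at r from 0.993 to 0.995 and with the other wild-type arrays at 0.973 and 0.984. The 3' minus 5' signal of 7 control transcripts, a measure of RNA quality, was 1.59 on wild-type array 2 and between 1.02 and 1.18 on the other 5. The deposited numbers have as many as 8 significant digits for wild type and 7 for slt2, so the handling of the values and the genotype cannot be told apart. The genes described in detail are therefore given array by array, and the difference against wild-type array 3 alone, an alternative chosen after the arrays were seen, is given where it matters.

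The comparison across all genes asks which transcripts depend on SLT2 when cells are not stressed. SLT2 was the only gene that passed an adjusted p of 0.05 in limma on the 6 arrays, 1 of 5449 genes or 0.0184%, and 0 genes passed as higher in slt2. At an unadjusted p under 0.05 there were 742 genes, and the second smallest adjusted p was 0.36 (limma). The quartiles of the log2 differences were -0.19 and 0.11, around a median of -0.03, and the median standard error was 0.135. With array weights, which count wild-type array 3 far above arrays 1 and 2, limma called 408 genes lower (7.49%) and 180 higher (3.3%), from a weight estimate that stopped before it converged. An exact permutation test of 3 arrays against 3 cannot go below p = 0.1. What follows for genes other than SLT2 is therefore a description of values that did not pass the test. The description uses whether the 2 groups of arrays overlap. All 3 slt2 arrays lay below all 3 wild-type arrays for 975 genes (17.9%) and above them for 487 (8.94%). Centring each array on its median turned this split to 714 lower (13.1%) and 1056 higher (19.4%), and quantile normalization to 867 lower and 868 higher, so the balance between the directions depended on the scaling. By size, 40 genes were at least 1 log2 unit lower in slt2, 29 of them without overlap, and 25 were at least 1 log2 unit higher, 17 of them without overlap.

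Genes of the cell wall integrity pathway itself differed little at the level of the core kinases. Of 27 signalling genes measured, 9 lay lower in slt2 without overlap (33.3%, against 17.9% of all genes) and 3 higher (11.1%, against 8.94%). Their median log2 difference was -0.08 against -0.03 for all genes, and quantile normalization put it at 0.01. PKC1, the kinase under Rho1, had a difference of -0.04 (SE 0.08) and BCK1, the kinase below it, 0.00 (SE 0.10), both with overlapping groups. MKK1 and MKK2 encode the paired kinases that phosphorylate Slt2. MKK1 read 9.99, 9.67 and 10.16 in wild type and 10.39, 10.29 and 10.30 in slt2, a log2 difference of 0.38 (SE 0.14). All 3 slt2 arrays were above the wild-type arrays, and the closest wild-type array was array 3. MKK2 had a difference of -0.06 (SE 0.14), its groups overlapped, and its sign turned under centring and quantile normalization, as it did for PKC1.

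Upstream of the kinases, the sensor genes gave small differences of both signs. SLG1, which encodes the main sensor Wsc1, read 10.97, 11.01 and 11.08 in wild type and 11.18, 11.09 and 11.16 in slt2, a difference of 0.13. The slt2 arrays were higher by a margin close to the spread within a genotype. WSC3 had a difference of -0.30 without overlap. The groups overlapped for WSC2 (0.07), MID2 (-0.18), MTL1 (-0.22) and WSC4, for which wild-type array 2 read 11.53 and the other 5 arrays between 8.54 and 9.48. Among the exchange factors of Rho1, ROM1 read 8.001, 8.12 and 7.86 in wild type and 7.71, 7.06 and 7.70 in slt2, a difference of -0.50 (SE 0.20). Most of that distance came from slt2 array 2, which was the lowest of the 6 arrays. TUS1 (-0.31) and ROM2 (-0.16) also lay lower without overlap. RHO1 read 13.23, 13.10 and 13.07 in wild type and 12.90, 12.88 and 12.89 in slt2, a difference of -0.24 (SE 0.08). Its slt2 arrays were nearly equal and below every wild-type array. The GTPase-activating proteins of Rho1 encoded by SAC7 (0.21), BAG7 (-0.10), LRG1 (-0.04, above 0 under both scalings) and BEM2 (0.11) had overlapping groups.

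Among the phosphatases that switch Slt2 off, MSG5 and SDP1 separated the groups and PTP2 and PTP3 did not. MSG5, a dual-specificity phosphatase that acts on Slt2 and on the mating kinase Fus3, read 10.73, 10.59 and 10.40 in wild type and 10.17, 10.004 and 10.09 in slt2. Every slt2 array was below every wild-type array, and the difference was -0.49 (SE 0.11, adjusted p = 0.36, limma). SDP1, a second dual-specificity phosphatase that is selective for Slt2, read 6.53, 6.91 and 6.46 in wild type and 6.20, 5.91 and 6.10 in slt2, a difference of -0.57 (SE 0.15). Its groups did not overlap either, and wild-type array 2 was the highest. Against wild-type array 3 alone MSG5 was at -0.31 and SDP1 at -0.39. The tyrosine phosphatase genes PTP2 (0.07) and PTP3 (0.03) had overlapping groups. At the transcription factors under Slt2 the values went different ways. RLM1 read 9.75, 9.33 and 9.53 in wild type and 9.26, 9.10 and 9.21 in slt2, a difference of -0.35 (SE 0.13). SWI4 read 7.26, 7.24 and 7.90 in wild type and 8.20, 8.03 and 8.11 in slt2, a difference of 0.65 (SE 0.19). Both genes separated the groups, RLM1 with lower and SWI4 with higher slt2 arrays. For SWI4 the distance was mostly to wild-type arrays 1 and 2, since against array 3 alone it was 0.21, while for RLM1 it was -0.34 against array 3. SWI6, the partner of Swi4, had a difference of -0.08 with overlap, and 0.01 with quantile normalization.

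**Figure D1:**
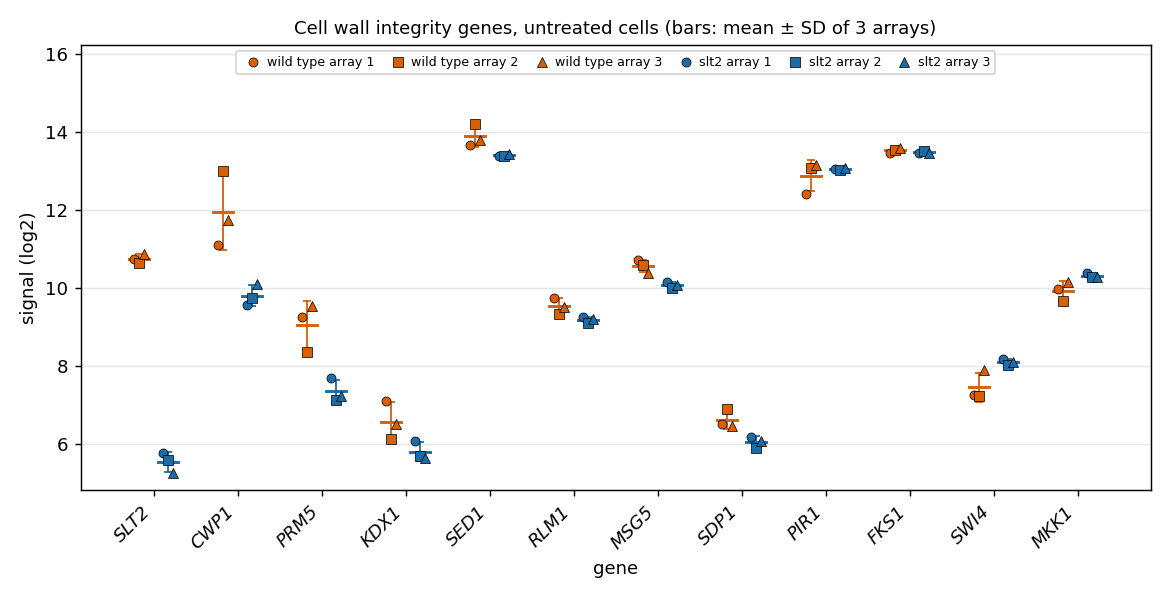
Log2 signal (vertical axis) of 12 genes of the cell wall integrity pathway and its targets on each of the 6 untreated arrays, wild type in orange and slt2 in blue, with bars for the mean ± SD of 3 arrays. SLT2 shows the widest gap, CWP1 and PRM5 lie lower on all slt2 arrays, PIR1 and FKS1 overlap, and SWI4 and MKK1 lie higher on all slt2 arrays.

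Wall genes known as targets of Slt2 and Rlm1 lay lower in slt2 more often than higher. Of 26 measured, 10 were lower without overlap (38.5%, against 17.9% of all genes), 0 were higher without overlap (8.94% of all genes) and 3 had a difference above 0. The list holds SLT2, its 1 member that passed the test. Its median was -0.17, and -0.11 and -0.14 under the scaling alternatives. With each array centred, 7 members were lower without overlap (26.9%, against 13.1%) and 1 was higher. The list was written with earlier results of these data known and gives no independent evidence of direction.

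CWP1 and PRM5 carried the largest differences among these targets after SLT2. CWP1 encodes a mannoprotein of the cell wall and read 11.12, 13.00 and 11.74 in wild type and 9.57, 9.75 and 10.11 in slt2. The lowest wild-type array was a full log2 unit above the highest slt2 array. The difference was -2.14 (SE 0.47), or 4.41-fold, with an adjusted p of 0.36 (limma), and wild-type array 2 was the highest. Without that array it was -1.62. PRM5 encodes a predicted membrane protein whose transcript is used as a reporter of the pathway, and it read 9.26, 8.37 and 9.56 in wild type and 7.69, 7.14 and 7.24 in slt2. Here wild-type array 2 was the lowest of the wild-type arrays and still stood above all slt2 arrays. The difference was -1.70 (SE 0.33), 3.26-fold, with an adjusted p of 0.36 (limma). KDX1, also called MLP1, encodes a kinase-like paralogue of Slt2 and read 7.11, 6.13 and 6.51 in wild type and 6.09, 5.71 and 5.66 in slt2. Its difference was -0.77 (SE 0.26), and the margin between wild-type array 2 and slt2 array 1 was small.

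Other wall targets gave smaller differences. SED1, an abundant wall glycoprotein, read 13.68, 14.20 and 13.80 in wild type and 13.40, 13.38 and 13.44 in slt2, a difference of -0.49 (SE 0.15). All slt2 arrays were below the wild-type arrays and close to each other. FLC2, a putative flavin carrier of the endoplasmic reticulum, had -0.27, and CCW14, an inner wall glycoprotein, -0.17. BGL2, a glucan-modifying enzyme of the wall, had -0.16, and DFG5, a putative mannosidase, -0.10. These 4 also separated the groups, but the closest arrays of DFG5 read the same to 2 decimals. Proteins of the PIR family, which are linked to wall glucan, did not separate them. PIR1 had a difference of 0.16 (SE 0.20), HSP150 -0.02 and CIS3 -0.01, both above 0 with centred arrays, and PIR3 -0.56 (SE 0.24). For PIR1 the wild-type spread was that of array 1, which read 12.42 against at least 13.03 on the other 5. CRH1, a transglycosylase that joins chitin to glucan, had 0.21, and PST1, a wall protein linked to damage, -0.28, both with overlap. The glucan synthase genes FKS1 (-0.05, above 0 with centred arrays) and GSC2 (-0.47) and the chitin synthase gene CHS3 (-0.07) overlapped as well. GSC2 shows how the arrays matter, since it read 10.83, 10.90 and 10.01 in wild type and 10.25, 10.005 and 10.07 in slt2. Its wild-type array 3 was among the slt2 arrays, and the difference against that array alone was 0.10.

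Beyond the known targets, enzymes that build and remodel the wall showed no common direction. Of 30 genes of glucan synthesis and remodelling, 4 were higher and 5 lower without overlap (13.3% and 16.7%, against 8.94% and 17.9% of all genes), around a median of -0.03. The higher ones were SCW11 (0.23), SUN4 (0.26), UTH1 (0.21) and UTR2 (0.22), which encode wall hydrolases or transglycosylases and SUN family proteins. Each was near 0.14 with 1 array left out, wild-type array 1 for SCW11, SUN4 and UTH1 and wild-type array 2 for UTR2. The lower ones included KNH1 (-0.44) and KEG1 (-0.31), which act in beta-1,6-glucan synthesis, and GAS2 (-0.22), a glucanosyltransferase of spore wall formation. Of 19 chitin genes, 1 was lower without overlap and 0 higher. That gene was CHS7, an export chaperone of chitin synthase III, with -0.11. Of 29 wall mannoprotein genes, 6 were lower without overlap (20.7%) and 0 higher. FLO10, a flocculin, read 7.87, 7.78 and 7.72 in wild type and 7.31, 6.82 and 7.16 in slt2, a difference of -0.69 (SE 0.14). Its wild-type arrays were close together, above all slt2 arrays. DAN4, a mannoprotein gene known from anaerobic growth, had -0.51 without overlap. SPI1, a stress-induced wall protein, overlapped, with 11.16 on wild-type array 2 and between 8.39 and 9.45 on the other 5.

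Late G1 genes, the targets of SBF and its relative MBF, gave values of both signs. Of 29 measured, 4 were higher and 3 lower without overlap (13.8% and 10.3%, against 8.94% and 17.9%), around a median of 0.04. With centred arrays 9 were higher (31.0%, against 19.4%) and 2 lower (6.9%, against 13.1%). CLN1 and CLN2 encode paralogous G1 cyclins and went opposite ways. CLN1 read 10.60, 10.47 and 10.09 in wild type and 9.94, 9.83 and 9.95 in slt2, a difference of -0.48 (SE 0.15). CLN2 read 10.47, 10.87 and 10.90 in wild type and 11.07, 11.01 and 11.09 in slt2, a difference of 0.31 (SE 0.13). Both separated the groups, and for both, array 3 was the wild-type array nearest to slt2. Without wild-type array 1 the CLN2 difference was 0.17. The S-phase cyclin genes CLB5 (0.24, no overlap) and CLB6 (0.58, overlap) had positive values. MNN1 (0.38, and 0.18 without wild-type array 1) was higher and OCH1 (-0.39) lower without overlap, and both encode mannosyltransferases of the Golgi. Of 9 histone genes 6 were lower without overlap (66.7%, against 17.9%), by at most 0.36 at the variant gene HTZ1, and 0 were when each array was centred. In RNA of a whole culture, fewer cells in a phase of the cycle and less of a transcript per cell cannot be told apart.

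Pheromone response genes, which share upstream parts and the phosphatase Msg5 with the wall pathway, were near 0 as a list. Of 27 measured, 2 were higher and 4 lower without overlap (7.41% and 14.8%, against 8.94% and 17.9%), with a median of -0.02 that turned to 0.04 with centred arrays and 0.05 with quantile normalization. AGA1, the anchor of the a-agglutinin, read 9.40, 10.25 and 10.32 in wild type and 10.36, 10.33 and 10.55 in slt2, a difference of 0.42. SST2, which turns off the pheromone-coupled G protein, read 10.29, 10.19 and 10.72 in wild type and 10.85, 10.77 and 10.86 in slt2, a difference of 0.43. Slt2 arrays were higher for both, and wild-type array 3 was the closest to them. Wild-type array 1 was the lowest for AGA1, and without it that difference was 0.13. FUS1, a cell fusion gene driven by pheromone, had 0.40 (SE 0.33) with overlap, and FAR1, the pheromone-dependent cell cycle inhibitor, -0.02, which was 0.04 with centred arrays.

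A further set of genes was picked out because all 3 wild-type arrays, and not only their mean, stood at least 1 log2 unit from the slt2 mean. It has 8 members and was chosen after values were seen. The 7 lower in slt2 were SLT2, PRM5, CWP1, SPO19, SRL3, RRT5 and AFR1, each without overlap. The only one higher was the small open reading frame YJR151W-A, which read 5.96, 5.67 and 6.04 in wild type and 5.88, 9.07 and 6.63 in slt2. Its height came from slt2 array 2 alone, and its groups overlapped.

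SRL3, also called WHI7, encodes an inhibitor of the entry into the cell cycle related to Whi5. It read 8.25, 8.59 and 8.49 in wild type and 7.33, 6.88 and 7.35 in slt2, a difference of -1.26 (SE 0.17, adjusted p = 0.36, limma). The wild-type arrays lay close together, all above the slt2 arrays. AFR1, which regulates the alpha-factor receptor and the shape of the mating projection, read 8.73, 8.87 and 8.49 in wild type and 7.62, 6.81 and 7.37 in slt2, a difference of -1.43 (SE 0.22, adjusted p = 0.36, limma). Again all wild-type arrays were above all slt2 arrays. RRT5, a gene of unknown function, read 8.67, 8.75 and 7.86 in wild type and 7.09, 6.19 and 6.49 in slt2, a difference of -1.84 (SE 0.32). SPO19, a gene of sporulation, read 6.74, 7.55 and 6.88 in wild type and 6.02, 4.96 and 5.22 in slt2, a difference of -1.66 (SE 0.33). Both separated the groups, and slt2 arrays 2 and 3 of SPO19 were in the range of the deleted genes' probe sets. On wild-type array 3 alone, 13 genes stood that far from the slt2 mean: these 8 and NCE103, RTS3, POX1, FBP1 and ADA2. NCE103 (carbonic anhydrase), POX1 (fatty acid oxidation) and FBP1 (gluconeogenesis) had overlapping groups.

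The genes with the smallest unadjusted p after SLT2 were named by rule, 7 further lower and 8 higher, and none of these 15 passed the test (adjusted p = 0.36 each, limma). On the lower side they were SRL3, AFR1, HAP2, PET54, RRT5, YPL088W and RTS3. HAP2 encodes a subunit of the CCAAT-binding activator of respiratory genes and read 9.75, 9.69 and 9.55 in wild type and 9.11, 8.92 and 9.11 in slt2. The difference was -0.62 (SE 0.10), and the wild-type arrays were close together, all above the slt2 arrays. PET54, which acts in mitochondria on transcripts of cytochrome oxidase subunits, read 10.45, 10.44 and 10.23 in wild type and 9.86, 9.82 and 9.79 in slt2, a difference of -0.55 (SE 0.09). YPL088W, a putative aryl alcohol dehydrogenase, had -0.79 (SE 0.14), and RTS3, a putative part of a protein phosphatase, -1.07 (SE 0.20). All 4 separated the groups.

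On the higher side the rule gave CLG1, SRO9, CPD1, AIM26, YBR238C, PSP2, NSE4 and YBL112C. CLG1, a cyclin-like protein that binds the kinase Pho85, read 10.53, 10.40 and 10.74 in wild type and 11.47, 11.33 and 11.40 in slt2, a difference of 0.84 (SE 0.11). The slt2 arrays were tight and above all wild-type arrays. SRO9, an RNA-binding protein of translating ribosomes, read 10.03, 10.17 and 10.85 in wild type and 11.80, 11.75 and 11.87 in slt2, a difference of 1.46 (SE 0.22). CPD1, a cyclic phosphodiesterase, read 7.13, 7.19 and 7.90 in wild type and 8.89, 8.67 and 9.13 in slt2, a difference of 1.49 (SE 0.24). In both genes wild-type array 3 lay above its replicates and still below every slt2 array. PSP2, an RNA-binding protein, had 0.83 (SE 0.15), and NSE4, a subunit of the Smc5-Smc6 complex, 0.89 (SE 0.18). YBR238C, related to a mitochondrial RNA-processing factor, had 0.92 (SE 0.16). AIM26 had 0.50 (SE 0.09), but it read between 3.89 and 4.54 on all 6 arrays, in the range of the deleted genes. YBL112C (0.88) lies in a repeated subtelomeric element, so its probe set may read several copies.

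Many of the larger differences rested on 1 or 2 wild-type arrays, and the list medians show which. Respiratory chain genes had the largest share of separated members on the deposited scale. Of 36 measured, 25 were lower in slt2 without overlap (69.4%, against 17.9%) and 1 was higher, with a median of -0.46. From the slt2 mean the list stood 0.73 log2 units up on wild-type array 1, 0.53 on array 2 and 0.14 on array 3. With each array centred, 15 members were lower without overlap (41.7%, against 13.1%), a smaller share than that of ribosome biogenesis genes that were higher. SDH2, the iron-sulfur subunit of succinate dehydrogenase, read 11.19, 11.36 and 10.29 in wild type and 9.98, 9.94 and 10.09 in slt2, a difference of -0.94 (SE 0.28) and -0.28 against wild-type array 3 alone. COX7, a cytochrome oxidase subunit, read 12.65, 12.24 and 11.75 in wild type and 11.41, 11.37 and 11.54 in slt2, a difference of -0.77 and -0.31 against array 3. All wild-type arrays were above the slt2 arrays for both genes, array 3 by the smallest margin. ATP2, a subunit of the ATP synthase, was the 1 member above, with 0.22. HAP4, the limiting subunit of the Hap activator, read 10.43, 10.04 and 9.37 in wild type and 8.79, 8.86 and 8.92 in slt2, a difference of -1.09 (SE 0.26), with arrays 1 and 2 the highest. Of 11 genes of the tricarboxylic acid cycle, 6 were lower without overlap (54.5%), but with centred arrays 2 were (18.2%, against 13.1%). The citrate synthase gene CIT1 had -0.46 (SE 0.10) and -0.34 against array 3.

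**Figure D2:**
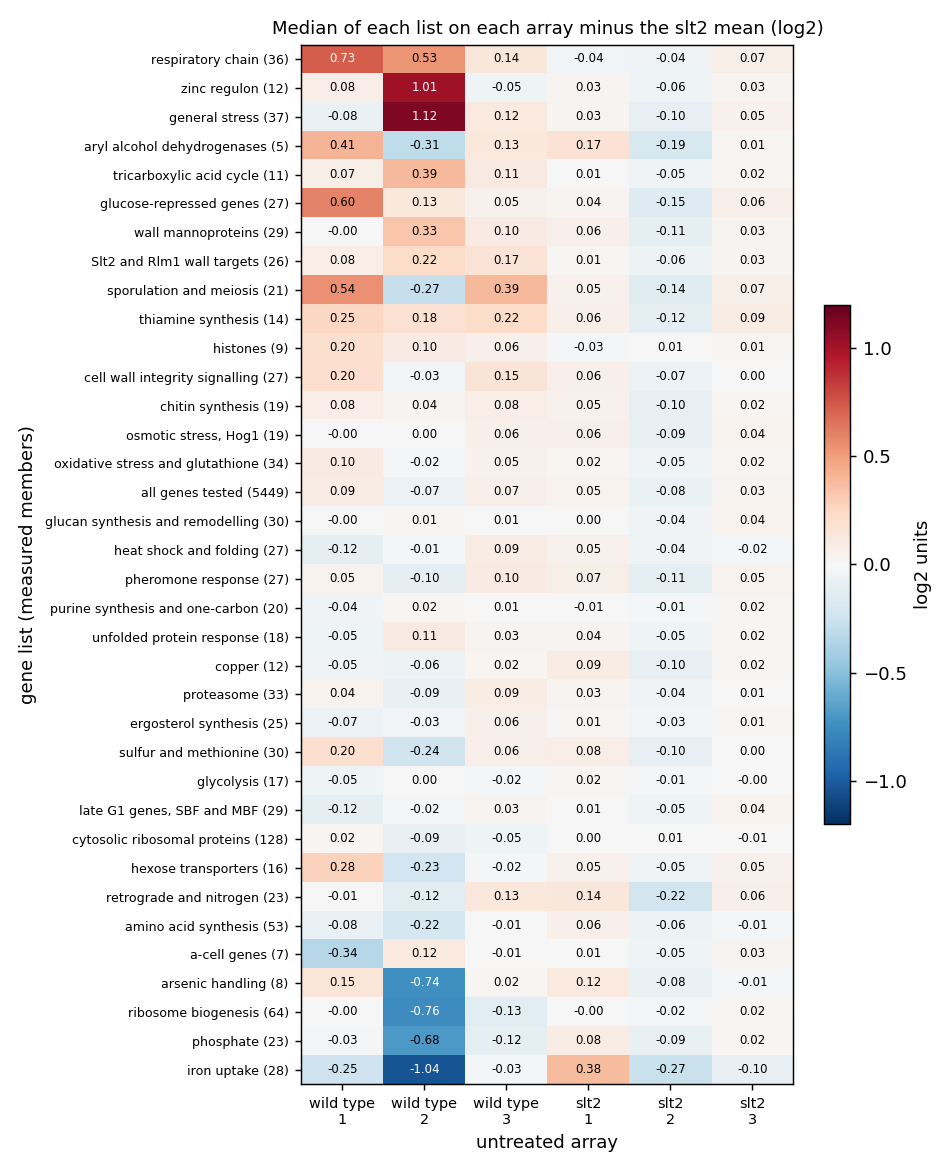
Median over the members of a gene list of the log2 signal on an array minus the slt2 mean of the gene, for the 6 untreated arrays (columns) and each list shown with its number of measured members (rows, ordered by the log2 difference of the genotypes). Wild-type arrays 1 and 2 stand apart at the respiratory chain (0.73 and 0.53), wild-type array 1 at glucose-repressed genes (0.60), wild-type array 2 at general stress (1.12), zinc (1.01) and iron (-1.04), and wild-type array 3 is close to the slt2 arrays in most rows.

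Several genes controlled by glucose stood far from slt2 on wild-type array 1, array 2 or both, and near it on array 3. HXT1, a low-affinity glucose transporter made when glucose is plentiful, read 6.22, 11.34 and 12.16 in wild type and 12.47, 12.58 and 12.54 in slt2. The groups did not overlap, but array 1 alone was far below its replicates, and the difference of 2.62 had an SE of 1.497. HXT4, a transporter of higher affinity, read 13.07, 12.90 and 10.69 in wild type and 10.78, 10.63 and 10.73 in slt2. HXK1, a hexokinase repressed by glucose, read 13.41, 13.25 and 11.23 in wild type and 11.16, 11.18 and 11.17 in slt2. For both, wild-type array 3 was next to or among the slt2 arrays and arrays 1 and 2 were far higher. Differences against array 3 alone were 0.02 for HXT4, 0.02 for the high-affinity transporter gene HXT7 and -0.06 for HXK1. MTH1, a repressor of HXT genes when glucose is low, read 10.46, 9.07 and 7.93 in wild type and 7.34, 6.83 and 7.19 in slt2, a difference of -2.04 (SE 0.60). It kept a distance of -0.81 to array 3. MIG3, a repressor made in high glucose, had 1.18 and 0.08 against array 3. Of 27 glucose-repressed genes, 5 were lower and 1 higher without overlap (18.5% and 3.7%, against 17.9% and 8.94%), with a median of -0.18 that was -0.03 without wild-type array 1. 

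Stress genes were high on wild-type array 2. Of 37 general stress genes, 9 were lower in slt2 without overlap (24.3%, against 17.9% of all genes) and 0 higher (against 8.94%). With centred arrays 5 were lower (13.5%, against 13.1%), a share near that of all genes, and 0 higher (against 19.4%). The list median of -0.36 became 0.00 without wild-type array 2 and -0.71 without wild-type array 1. HSP12, a small membrane-stabilising stress protein, read 9.46, 13.26 and 10.15 in wild type and 10.22, 10.55 and 10.83 in slt2, and its groups overlapped. GSY1, a glycogen synthase, read 10.01, 11.38 and 8.76 in wild type and 8.52, 7.72 and 8.14 in slt2, a difference of -1.92 (SE 0.64). TMA10, a ribosome-associated protein, read 10.46, 7.88 and 7.63 in wild type and 6.78, 6.55 and 6.69 in slt2, a difference of -1.98 (SE 0.73). For GSY1 array 2 was the highest and for TMA10 array 1, and in both array 3 was closest to slt2. YPC1, an alkaline ceramidase, read 8.99, 9.88 and 8.90 in wild type and 8.21, 7.98 and 8.18 in slt2, a difference of -1.14 (SE 0.27) with a smaller spread. Its distance to array 3 was -0.78. The 3' minus 5' signal was also highest on wild-type array 2, and its part in these values was not tested.

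**Figure D3:**
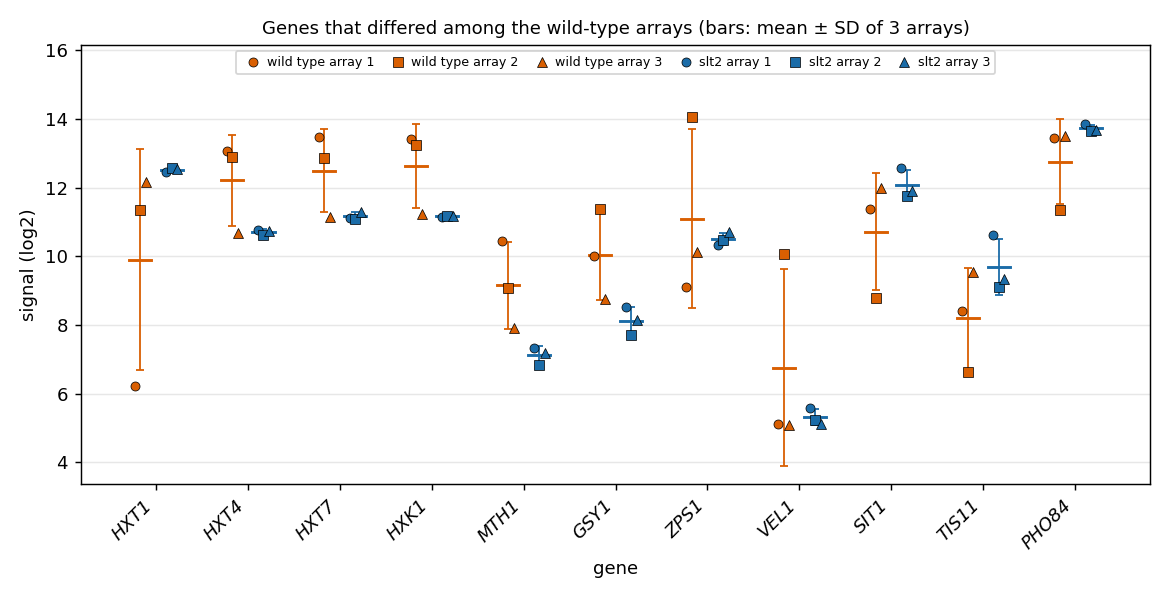
Log2 signal (vertical axis) of 11 genes that differed among the wild-type arrays, on each of the 6 untreated arrays, wild type in orange and slt2 in blue, with bars for the mean ± SD of 3 arrays. HXT1 is low on wild-type array 1, HXT4, HXT7 and HXK1 are high on arrays 1 and 2, ZPS1 and VEL1 are high on array 2, and SIT1, TIS11 and PHO84 are low on array 2.

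Ribosome biogenesis genes gave the most uniform positive list. All 64 measured members had a difference above 0, and 24 were higher without overlap (37.5%, against 8.94%), with a median of 0.30. The list stood 0.76 log2 units below the slt2 mean on wild-type array 2, 0.13 below on array 3 and level with it on array 1. Without wild-type array 2 its median was 0.08. With centred arrays 40 members were higher without overlap (62.5%, against 19.4%). DBP2, an RNA helicase, read 12.52, 11.76 and 12.54 in wild type and 12.78, 12.86 and 12.89 in slt2, a difference of 0.57 (SE 0.22). NSR1, a nucleolar protein of pre-rRNA processing, read 13.14, 12.46 and 13.03 in wild type and 13.26, 13.33 and 13.35 in slt2, a difference of 0.44 (SE 0.19). All slt2 arrays were above all wild-type arrays for both, and array 2 made most of the distance. DED1, a helicase of translation initiation, had 0.66 (SE 0.15) without overlap. Of 128 genes of cytosolic ribosomal proteins, 108 had a difference above 0 and 26 were higher without overlap (20.3%, against 8.94%), with a median of 0.04. With centred arrays 56 were higher without overlap (43.8%, against 19.4%). Ribosomal RNA itself was read by 17 probe sets, 2 of which were higher in slt2 without overlap. Of all genes 8.94% were, so 2 among 17 says little. The median signal of the 17 was 8.19, 6.82 and 7.15 on the wild-type arrays and 8.96, 7.57 and 8.10 on the slt2 arrays.

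Lists of mineral uptake followed wild-type array 2. Of 28 iron uptake genes, 3 were higher without overlap (10.7%, against 8.94% of all genes) and 0 lower (against 17.9%), with a median of 0.40 that was 0.13 without that array. SIT1, a siderophore transporter, read 11.37, 8.79 and 12.001 in wild type and 12.59, 11.76 and 11.89 in slt2. TIS11, which destabilises transcripts when iron is short, read 8.40, 6.64 and 9.56 in wild type and 10.61, 9.12 and 9.34 in slt2. Array 2 was by far the lowest for both, and the groups overlapped. Of 23 phosphate genes, 5 were higher and 2 lower without overlap (21.7% and 8.7%, against 8.94% and 17.9%). With centred arrays 52.2% were higher and 8.7% lower, against 19.4% and 13.1% of all genes. The list median of 0.31 was 0.10 without array 2. PHO84, the high-affinity phosphate carrier that also takes up arsenate, read 13.44, 11.34 and 13.50 in wild type and 13.85, 13.66 and 13.69 in slt2, a difference of 0.97 (SE 0.58) and 0.23 against array 3. Of 12 zinc genes, 1 was lower without overlap (8.33%) and 0 higher. The zinc-regulated wall protein gene ZPS1 read 9.12, 14.06 and 10.12 in wild type and 10.34, 10.48 and 10.70 in slt2, and VEL1, another zinc-regulated gene, 5.11, 10.07 and 5.08 in wild type and 5.60, 5.24 and 5.13 in slt2. Both were far higher on wild-type array 2 than on any other array. Of 8 genes of arsenic handling, 1 was higher and 1 lower without overlap (12.5% each), and the arsenite exporter gene ARR3 had 0.39 (SE 0.42) with overlap.

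Some further groups were small in size. Of 14 thiamine genes, 5 were lower without overlap (35.7%, against 17.9% of all genes) and 0 higher (against 8.94%). THI2, a regulator of thiamine synthesis, read 7.52, 7.95 and 7.41 in wild type and 7.12, 6.60 and 6.88 in slt2, a difference of -0.76 (SE 0.19). The wild-type arrays were all above the slt2 arrays, and against array 3 the distance was -0.54. Of 21 genes of sporulation and meiosis, 5 were lower and 2 higher without overlap (23.8% and 9.52%). NDT80, the activator of middle meiotic genes, had -0.60, HOP1, a protein of the meiotic chromosome axis, -0.63, and SPR1, a spore wall glucanase, -0.60. Without wild-type array 1, the highest array for these genes, NDT80 was at -0.32 and HOP1 at -0.39. Against wild-type array 3 alone they were at -0.39 and -0.55. These 3 genes act in meiosis and read between 5.74 and 7.36 on all 6 arrays. The list median of -0.16 was -0.02 without wild-type array 1 and -0.39 against array 3 alone. Of 20 genes of purine synthesis and one-carbon metabolism, 7 were higher and 0 lower without overlap (35% and 0%, against 8.94% and 17.9%). With centred arrays the same list shares stood against 19.4% and 13.1% of all genes. The list median was -0.01, and 11 members had a difference below 0. Retrotransposon genes were among the largest positive values. YBL005W-A, a Ty Gag gene, read 7.68, 5.86 and 9.06 in wild type and 10.18, 9.83 and 9.77 in slt2, a difference of 2.40 (SE 0.75), with 0.87 against array 3. Ty genes have near-identical copies across the genome, so which copy was read is uncertain, also for YBL100W-A (1.65) and YAR010C (1.22). Further genes at least 1 log2 unit higher without overlap included the acid phosphatase gene PHO11 (1.06), which has a near-identical paralogue and was low on wild-type array 2 alone, the Pho85 cyclin gene PCL5 (1.04), the vacuolar carboxypeptidase gene CPS1 (1.03) and ADA2, an adaptor of the SAGA complex. ADA2 read 9.37, 7.27 and 8.34 in wild type and 9.76, 9.66 and 9.80 in slt2, and the wild-type arrays were widely spread below a tight slt2 group.

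The remaining lists can be read against the same shares of all genes, 8.94% higher and 17.9% lower without overlap. Among lists of protein quality control, 3 of 27 heat shock and folding genes were higher (11.1%) and 0 lower, and 1 of 18 unfolded protein response genes was higher and 3 lower (16.7%). Of 33 proteasome genes, 1 was higher and 1 lower. Of 19 osmotic stress genes, 2 were higher (10.5%) and 3 lower (15.8%), and of 34 oxidative stress and glutathione genes 3 were higher (8.82%) and 6 lower (17.6%). These shares were near or below those of all genes. In metabolism, 4 of 17 glycolysis genes were higher (23.5%) and 0 lower, and of 16 hexose transporter genes 2 were higher and 2 lower (12.5% each). Of 53 amino acid synthesis genes, 8 were higher (15.1%) and 1 lower, and with centred arrays 20 were higher (37.7%, against 19.4%). Of 30 sulfur and methionine genes, 4 were higher (13.3%) and 5 lower (16.7%), and of 25 ergosterol genes 2 were higher and 3 lower. Of 12 copper genes, 4 were higher (33.3%) and 2 lower (16.7%), and of 23 genes of retrograde and nitrogen regulation 1 was higher and 2 lower. None of the 5 aryl alcohol dehydrogenase genes of the list separated the groups, but YPL088W, which the list does not hold, did. Medians of these 13 lists lay between -0.21 and 0.10.

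The surroundings of SLT2 on chromosome VIII were read for traces of the disruption. Of 8 neighbouring genes, 2 were higher without overlap (25%, against 8.94% of all genes) and 0 lower (against 17.9%). ERC1, a transporter gene, read 10.66, 10.36 and 10.86 in wild type and 11.21, 11.07 and 11.16 in slt2, a difference of 0.52 (SE 0.14). YHI9, the neighbour on the other side, read 10.53, 10.27 and 10.71 in wild type and 11.06, 10.81 and 10.91 in slt2, a difference of 0.42 (SE 0.14). RRM3, between SLT2 and ERC1, had 0.10, DAP2 -0.17 and RPN1 0.09, with overlapping groups. No chromosome stood apart, since the 16 chromosome medians ran from -0.09 on IX to 0.01 on VIII.

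The same genotype difference was read on the 6 arsenate arrays, which share no array with the untreated comparison. Some deviations of a wild-type array recurred on the arsenate array of the same number. Without and with arsenate, HXT1 read 6.22 and 5.76 on wild-type array 1, and VEL1 10.07 and 11.35 on wild-type array 2. Others did not recur, such as HXT4 with 13.07 and 8.39 on wild-type array 1. How far the shared sets below repeat such deviations was not tested. With arsenate, 1284 genes were lower in slt2 without overlap (23.6%) and 899 higher (16.5%). Of the 975 genes lower without arsenate, 655 were also lower with it, 67.2% of the untreated set and 51.0% of the arsenate set, and 2 were higher. Of the 487 higher ones, 341 were higher in both, 70.0% and 37.9% of the sets, and 3 were lower. All 6 slt2 arrays lay below all 6 wild-type arrays for 349 genes (6.4%) and above them for 254 (4.66%). Across genes the 2 differences correlated at r = 0.686, a description, since genes are not independent and the genotypes also differ in the digits of their values.

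Members of the wall pathway can be set side by side in this way. PRM5 read 11.16, 9.16 and 9.43 on the wild-type arsenate arrays and 7.53, 7.30 and 7.07 on the slt2 arsenate arrays. CWP1 read 13.40, 13.14 and 12.78 in wild type and 10.30, 11.41 and 10.81 in slt2 with arsenate. SLT2, PRM5, MSG5, SDP1, FLC2, BGL2, CCW14, RHO1, ROM1 and TUS1 had all 6 slt2 arrays below all 6 wild-type arrays. So did SRL3 and AFR1, which were named by their p-values and not as wall genes. CWP1 separated the groups within each state but not across them, because slt2 arsenate array 2 read above wild-type untreated array 1. With arsenate the log2 differences were -2.61 for PRM5, -2.27 for CWP1, -2.35 for SRL3, -2.28 for AFR1, -2.14 for SDP1 and -0.52 for MSG5. SWI4 (0.56) and MKK1 (0.34) were higher on all slt2 arrays in both states. RRT5 did not carry over, with 0.03 and overlapping groups. PIR3 overlapped without arsenate and had -2.93 with it, without overlap, from 11.38, 10.61 and 7.37 in wild type and 7.03, 6.67 and 6.86 in slt2. Wild-type arsenate arrays 1 and 2 were far above the rest, and array 3 was close to slt2. Of 26 wall targets, 5 were lower on all slt2 arrays of both states (19.2%, against 6.4% of all genes), with SLT2 itself among the 5. Of 27 signalling genes 5 were lower (18.5%) and 3 higher (11.1%, against 4.66%). Whether the genotype difference changed with arsenate was not tested here.

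**Figure D4:**
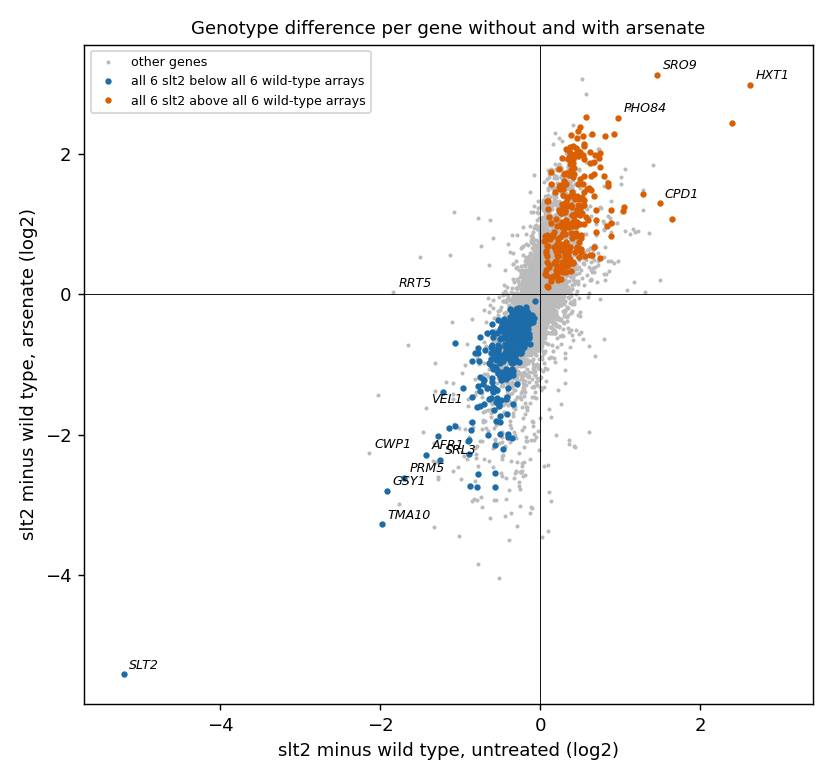
Log2 difference of slt2 minus wild type for each gene without arsenate (horizontal axis) and with arsenate (vertical axis), with the genes whose 6 slt2 arrays all lie below (blue) or above (orange) all 6 wild-type arrays. SLT2 sits apart at -5.20 and -5.41, PRM5, SRL3 and AFR1 are lower in both states, SRO9 and HXT1 higher in both, and RRT5 is lower only without arsenate. Most of the HXT1 difference came from wild-type array 1, which read 6.22 without and 5.76 with arsenate.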

How the data were processed

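The 6 untreated arrays, 3 wild type and 3 slt2, came from a series of 12 Affymetrix yeast arrays of total RNA. The authors deposited log2 signals per probe set. Per the submitters' processing notes they used RMA and Affymetrix Expression Console (no versions given). Values between 3.05 and 14.91 gave the log2 scale. Whether 1 RMA run covered both genotypes is not stated. Of 5814 probe sets, 5498 had 1 gene symbol, 0 several and 316 none. All 5498 matched the RefSeq gene table. Of several probe sets of a gene (47 genes), the one with the highest mean was kept, leaving 5449 genes.

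The 6 arrays were fitted with limma 3.58.1 in R 4.3.3 (lmFit, eBayes, default settings, Benjamini-Hochberg, threshold 0.05), and the script was tested on simulated data. A difference is slt2 minus wild type, and an array has no count depth, so 3 arrays per group limit the precision. Groups do not overlap where all arrays of one lie above all of the other. Alternatives covered the arrays fitted, replicate block, scaling, dim genes, probe sets, array weights, variance prior and each array left out. Named by rule were SLT2, its neighbours, strain markers, called genes, the smallest p-values to 8 per direction and 19 wall genes. Other genes were named after their values were seen. The comparison and the 39 gene lists were chosen with earlier results of these data known. The result of 1 list is not reported here. Figures used matplotlib 3.10.9 in Python 3.11.15. Sequences were not used here.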

Additional observations from a re-analysis of the deposited data

Results flagged for a closer look

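Control probe sets were not part of the comparisons. Of the 47 probe sets that the array names as reporters, 1 gave a bright signal in slt2 and a low one in wild type. It read 4.91, 6.19 and 5.29 on the untreated wild-type arrays and 14.21, 14.18 and 14.22 on the untreated slt2 arrays. The means were 5.46 ± 0.66 and 14.20 ± 0.02 (SD, n = 3), a difference of 8.74 log2 units. With arsenate it read 7.61, 8.83 and 6.48 in wild type and 14.19, 14.15 and 14.24 in slt2. The target of this probe set was not named in the tables used here. The next largest difference among the reporters was 1.45, and 9 of the 47 were higher in slt2 without overlap. Of all genes, 8.94% were higher without overlap on the deposited scale and 19.4% with centred arrays. The bright probe set was listed because it is a signal in data that the comparisons do not use, above the level in wild type.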

How the results depend on the processing

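SLT2 passed in every alternative run, with adjusted p from 2.55e-07 to 0.037 (limma). With array weights 588 genes were called, 408 lower (7.49%) and 180 higher (3.3%), but the weights, from 0.102 on wild-type array 2 to 8.97 on slt2 array 3, came from an estimate that stopped before it converged. Leaving out 1 array gave 1 to 5 calls, the 5 without wild-type array 3 being SLT2, HXK1, HXT4 and MPC3 lower and SRO9 higher. All other alternatives gave 1 call, the replicate block and wild-type array 3 alone included. Deviations of same-numbered arrays of the genotypes correlated across genes at 0.18, 0.15 and -0.17. A correlation cannot see an offset shared by all genes of an array. Medians over all probe sets were 10.17, 10.07 and 10.13 on wild-type arrays 1 to 3. On slt2 arrays 1 to 3 they were 10.12, 9.98 and 10.09, the same order. Whether the replicate numbers pair the arrays was therefore not settled. Genes higher without overlap numbered 1056 with centred arrays, 868 with quantile normalization and 518 to 938 with 1 array left out (869 without wild-type array 1, 938 without wild-type array 3 and 894 without slt2 array 2). Lower ones then numbered 989 to 1777, the most without wild-type array 2. With arsenate the counts were 1004 to 1790 higher (the most without wild-type arsenate array 3) and 1474 to 1781 lower. Leaving out an array can only keep or raise a count of genes without overlap. The rise of these counts over the full groups was therefore fixed in advance. Medians of 23 of 39 lists changed sign in at least 1 of 15 alternatives, as did 19 of the 120 named genes with a difference of 0.3 or more. The causes were not tested.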
